A study of Rattus norvegicus with 24 samples.

Results

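Usp9x encodes a large deubiquitinating enzyme, a protease that removes ubiquitin from other proteins, and was followed here at the transcript level in rat INS-1E cells. All probe sets annotated to Usp9x were taken, each on its own. Usp9x is 1 of 14217 named genes on the arrays, and 4 of the 31042 probe sets that are not controls belong to it. INS-1E is an insulinoma line that makes insulin. Single-colour Affymetrix arrays measured 24 samples in 8 groups of 3: cytokines with BRD0476, cytokines with the vehicle DMSO, BRD0476 without cytokines, and DMSO without cytokines, each for 12 or 6 h. The compound was at 10 uM, and the cytokine cocktail held IL-1b at 10 ng/ml, IFN-g at 50 ng/ml and TNF-a at 25 ng/ml. All groups come from the same line and medium, and the labels do not say whether replicates were separate cultures, so a p-value speaks only of the variation among the arrays at hand, which may be technical. The design asks how cytokines and the compound, alone and together, change gene expression in beta-cell-like cells.

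Ubiquitin chains mark proteins for the proteasome or change how they signal, and deubiquitinases such as USP9X take the marks off again. In human cells USP9X is known to stabilise the survival protein MCL1 and the ubiquitin ligase ITCH and to remove ubiquitin from SMAD4. In Drosophila its counterpart is fat facets, an eye development gene. BRD0476 was described as a compound that keeps beta cells alive under cytokines and lowers JAK-STAT signalling, and USP9X has been proposed as a protein it acts through. The arrays read RNA. They say nothing of the protein's amount, its activity or any binding of the compound.

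The 4 probe sets are 1372121_at, 1374447_at, 1389316_at and 1391145_at. Their means over all arrays were 9.74, 8.84, 9.23 and 7.45 log2 intensity, at the 90.6, 83.1, 86.7 and 68.3 percentiles of all probe sets, so all lay well above the lower quartile of values at 3.84. Probe sets differ in how well they bind, and their levels are not compared with each other. No probe set is named for the Y-linked copy Usp9y, and cross-binding between the copies was not tested. Over the 24 arrays, pairs of the 4 probe sets correlated with r between 0.436 and 0.907. After each group's mean was removed, r lay between 0.0257 and 0.710, lowest for 1374447_at with 1391145_at. These correlations describe points that share arrays and normalization.

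The cells read as beta-cell-like: all 8 measured beta-cell markers were above the lower quartile, between 8.38 (Nkx6-1) and 14.54 (Ins1). Of 17 measured markers of other cell kinds, 12 lay below that quartile. The 5 above it were Gcg at 10.14, Kdr at 5.60, Col1a1 at 4.41, Ppy at 4.19 and Cd3e at 4.18. Ptprc (3.71), Pecam1 (3.28), Prss1 (3.80) and Sst (3.76) were below it. Within a group, r between arrays lay at 0.992 to 0.998. Changes below are differences of mean log2 intensity ± standard error from a limma fit over all 31042 probe sets, with Benjamini-Hochberg adjusted p and n = 3 arrays per group, and a change is called at an adjusted p under 0.05. Values are relative to the other transcripts of a sample, and fewer cells of a kind cannot be told apart from less of the RNA per cell.

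With 6 h of cytokines in DMSO, Usp9x RNA was lower on every one of its probe sets. In linear intensity it stood at 53.3% of the level without cytokines on the brightest probe set and at 84.4% on the least responsive. All 4 probe sets were called down, in a comparison where 23.4% of all probe sets were. All 4 also had 3 cytokine arrays below the 3 arrays without cytokines, as 25.6% of all probe sets did.

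Probe set 1372121_at read 9.002, 9.028 and 8.968 with cytokines in DMSO at 6 h, against 9.84, 10.07 and 9.81 without. The cytokine arrays lay close together and all below the others. The change was −0.91 ± 0.08 (adjusted p = 3.96e-09), lower than that of all but 6.08% of probe sets. In linear units the group means were 511.8 with cytokines and 959.7 without.

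Probe set 1389316_at read 8.73, 8.80 and 8.89 with cytokines in DMSO, against 9.31, 9.50 and 9.28 without. It fell by 0.55 ± 0.09 (adjusted p = 2.45e-05). On 1391145_at, the dimmest, the cytokine arrays read 7.06, 7.04 and 7.01, against 7.48, 7.58 and 7.35 without. The groups were again apart, with a change of −0.43 ± 0.08 (adjusted p = 0.000201). Probe set 1374447_at moved least: 8.67, 8.65 and 8.72 with cytokines, against 8.92, 8.99 and 8.86 without. Its change of −0.24 ± 0.08 was called (adjusted p = 0.0122). That call was lost without replicate 2 of the DMSO group without cytokines (−0.21, adjusted p = 0.0514) and in a fit of only the 6 arrays compared (adjusted p = 0.0718).

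Most of the beta-cell markers were lower in the same 6 h arrays as Usp9x, and 4 of 8 were called down at 12 h. Of the 8 measured, 7 were called down with cytokines in DMSO at 6 h (23.4% of all probe sets), between −0.17 (Slc2a2, the glucose transporter GLUT2) and −1.52 (the transcription factor Nkx6-1), and Ins1 was not called (−0.05, adjusted p = 0.548). With BRD0476 added, 6 of the 8 were called up (19.2% of all). At 6 h the summed log2 level of the 8 ran from 100 to 100.5 with cytokines and BRD0476, from 97.21 to 97.56 with cytokines and DMSO, from 102.4 to 102.5 with BRD0476 alone and from 100.6 to 101.7 with neither. At 12 h it ran from 101.7 to 102.1 with cytokines and BRD0476, from 98.07 to 98.48 with cytokines and DMSO, from 102.5 to 102.8 with BRD0476 alone and from 101.4 to 101.7 with neither. At 12 h, 4 of the 8 were called down with cytokines in DMSO (22.8% of all). These were Nkx6-1 (−1.76), Mafa (−0.98), Slc2a2 (−0.29) and Iapp (−0.14), so the low sum came mostly from Nkx6-1 and Mafa. Ins1 (−0.01), Ins2 (−0.05), Pdx1 (0.07) and Chga (−0.15) were not called. With BRD0476 added at 12 h, 4 of the 8 were called up (10.3% of all), a time at which Usp9x had no call for BRD0476. Of the 17 markers of other cells, Gcg (−0.96) and Kdr (−1.76) were called down with cytokines in DMSO at 6 h. Pecam1 (0.33) and Krt19 (0.37), both below the lower quartile of values, were called up. With BRD0476 added 2 of the 17 were called up, Gcg (0.84) and Kdr (1.72), and 0 down. The part of the markers in the Usp9x values was not tested.

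**Figure D1:**
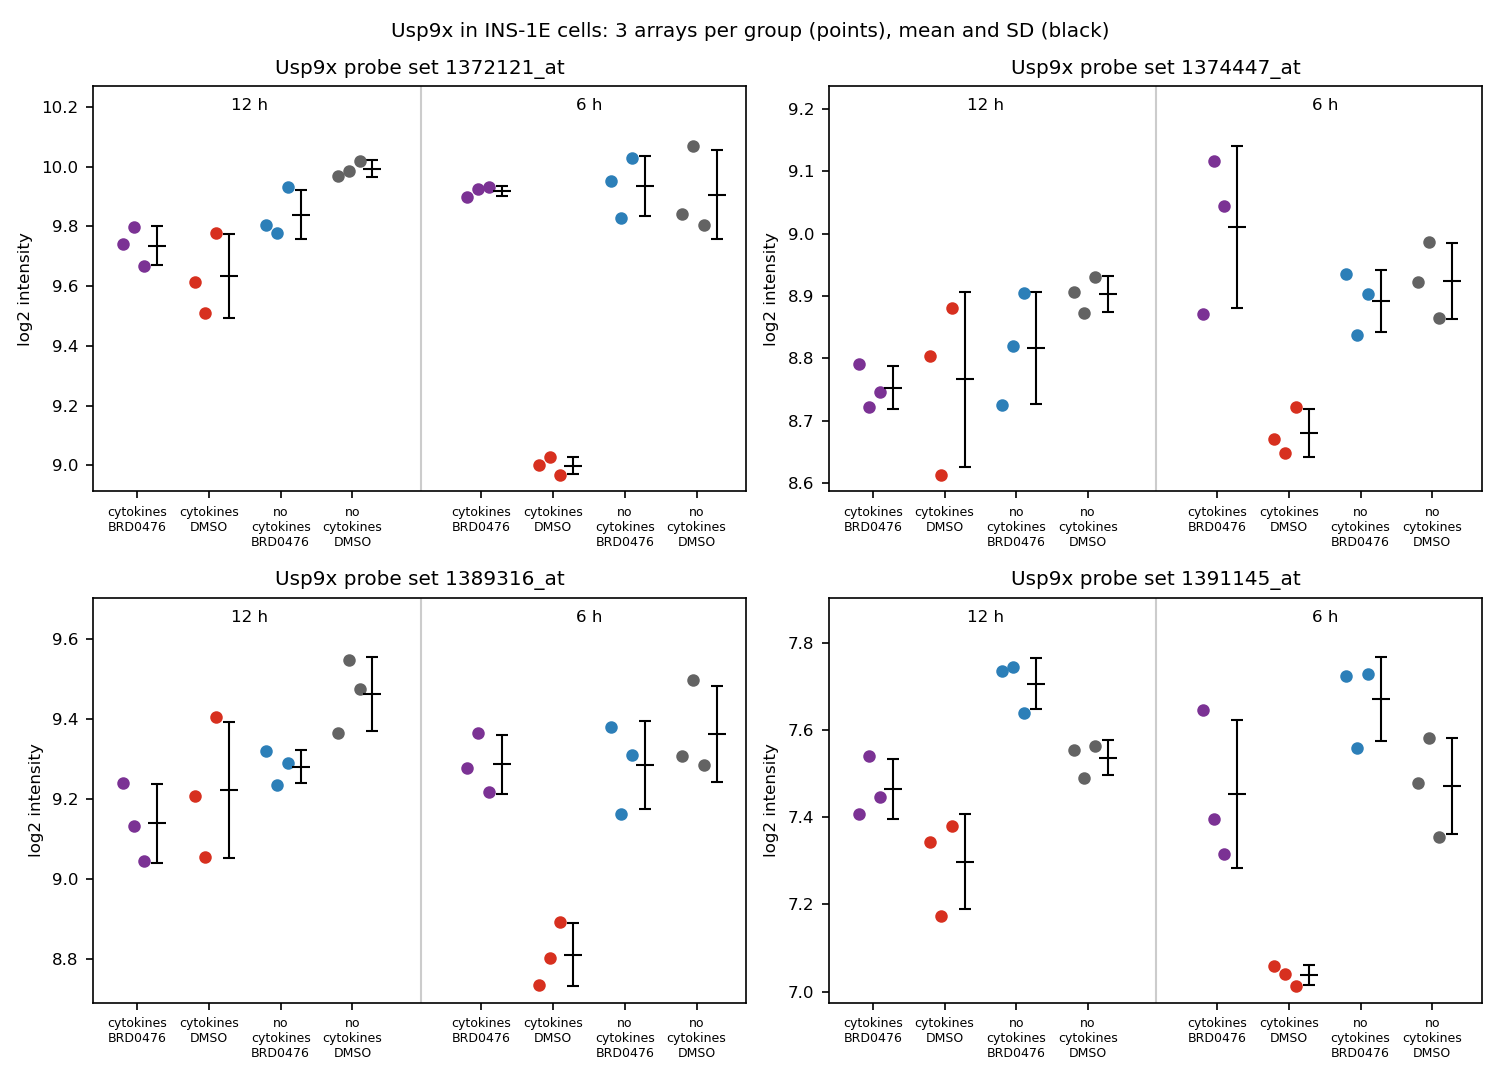
Log2 intensity of the 4 Usp9x probe sets, 1 panel each with its own vertical scale, in 8 groups (12 h left, 6 h right). Points are the 3 arrays of a group, the black bar beside them is the mean with its SD. In every panel the 6 h group with cytokines and DMSO has the lowest mean, for example 8.999 on 1372121_at.

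With BRD0476 present, the same 6 h of cytokines left Usp9x near the level of cells that had received no cytokines. Against none in BRD0476, 0 of 4 probe sets were called by limma, where 14.0% of all probe sets were; the unadjusted p was under 0.05 for 1391145_at alone, which was called in 3 alternatives. Probe set 1372121_at read 9.90, 9.93 and 9.93 with cytokines and BRD0476, against 9.95, 9.83 and 10.03 with BRD0476 alone, and these groups overlapped. The change was −0.02, with a 95% confidence interval of −0.18 to 0.15. The interval for 1374447_at ran from −0.04 to 0.28 and that for 1389316_at from −0.18 to 0.19. Probe set 1391145_at stood somewhat apart with −0.22 (−0.39 to −0.04, adjusted p = 0.101). Without replicate 1 of the group with cytokines and BRD0476, where it read 7.65 against 7.40 and 7.32 in the other arrays, its change was −0.31 (adjusted p = 0.0154).

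Set directly against cytokines with DMSO, the arrays with cytokines and BRD0476 were higher on all 4 probe sets at 6 h. Each was called up, in a comparison where 19.2% of all probe sets were, and on each the 3 arrays with BRD0476 were above the 3 with DMSO, as on 23.1% of all probe sets. Probe set 1372121_at rose by 0.92 ± 0.08 (means 9.919 with BRD0476 and 8.999 with DMSO, adjusted p = 7.09e-09). In linear intensity it stood at 189% of the level with DMSO, and 97.4% of probe sets had a lower change. Probe set 1389316_at rose by 0.48 ± 0.09 (9.28, 9.36 and 9.22 with BRD0476, against 8.73, 8.80 and 8.89 with DMSO, adjusted p = 0.000205). For 1391145_at the change was 0.42 ± 0.08 (7.65, 7.40 and 7.32 against 7.06, 7.04 and 7.01 with DMSO, adjusted p = 0.00045). For 1374447_at it was 0.33 ± 0.08 (8.87, 9.12 and 9.05 against 8.67, 8.65 and 8.72 with DMSO, adjusted p = 0.00148).

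The fall with cytokines and the higher level with the compound share the 3 arrays with cytokines and DMSO at 6 h, so they are not independent of each other. The test that the cytokine change differs with and without BRD0476 also uses those arrays. This interaction was 0.89 ± 0.11 on 1372121_at (adjusted p = 3.71e-06), 0.56 ± 0.13 on 1389316_at (adjusted p = 0.00219) and 0.36 ± 0.11 on 1374447_at (adjusted p = 0.0154). On 1391145_at it was 0.22 ± 0.12 (95% interval −0.03 to 0.46, adjusted p = 0.216) and was not called. Thus 3 of 4 probe sets were called up, against 14.6% of all probe sets. For 1374447_at the call was lost without replicate 2 of the group with cytokines and BRD0476 (0.31, adjusted p = 0.0532). Cells with both agents did not pass limma's test against cells with neither on any Usp9x probe set at 6 h, with 0 of 4 at an unadjusted p under 0.05, where 19.3% of all probe sets did. The 4 intervals of that difference ran from −0.15 to 0.18, −0.07 to 0.24, −0.26 to 0.11 and −0.19 to 0.16, in the order in which the probe sets were introduced.

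Few probe sets were called for BRD0476 without cytokines: 1.72% of all at 6 h and 2.57% at 12 h. A probe set without a call is not thereby shown to be unchanged. These 535 and 797 calls moved with single arrays: there were 291 and 266 at 6 h without replicate 1 or 2 of the BRD0476 group, and 430 to 504 at 12 h without any one of the 6 arrays. Array weights gave 901 at 6 h and 2573 at 12 h, and only the arrays compared gave 65 at 6 h. None of the 4 Usp9x probe sets was called by limma at either time, and 1 at 6 h and 0 at 12 h had an unadjusted p under 0.05. At 6 h the probe set 1372121_at had 9.95, 9.83 and 10.03 with BRD0476 alone, against 9.84, 10.07 and 9.81 with DMSO, and the arrays overlapped. Its interval ran from −0.14 to 0.20. Probe set 1391145_at was the one with an interval that left out 0, from 0.02 to 0.37 (change 0.20, adjusted p = 0.332). At 12 h the probe sets leaned in both directions without a call. There 1372121_at changed by −0.15 (−0.32 to 0.01), 1389316_at by −0.18 (−0.37 to 0.01), 1374447_at by −0.09 (−0.24 to 0.07) and 1391145_at by 0.17 (−0.01 to 0.35). On 3 of them the arrays did not overlap, as on 25.1% of all probe sets. The BRD0476 arrays were lower on 2 and higher on 1391145_at.

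**Figure D2:**
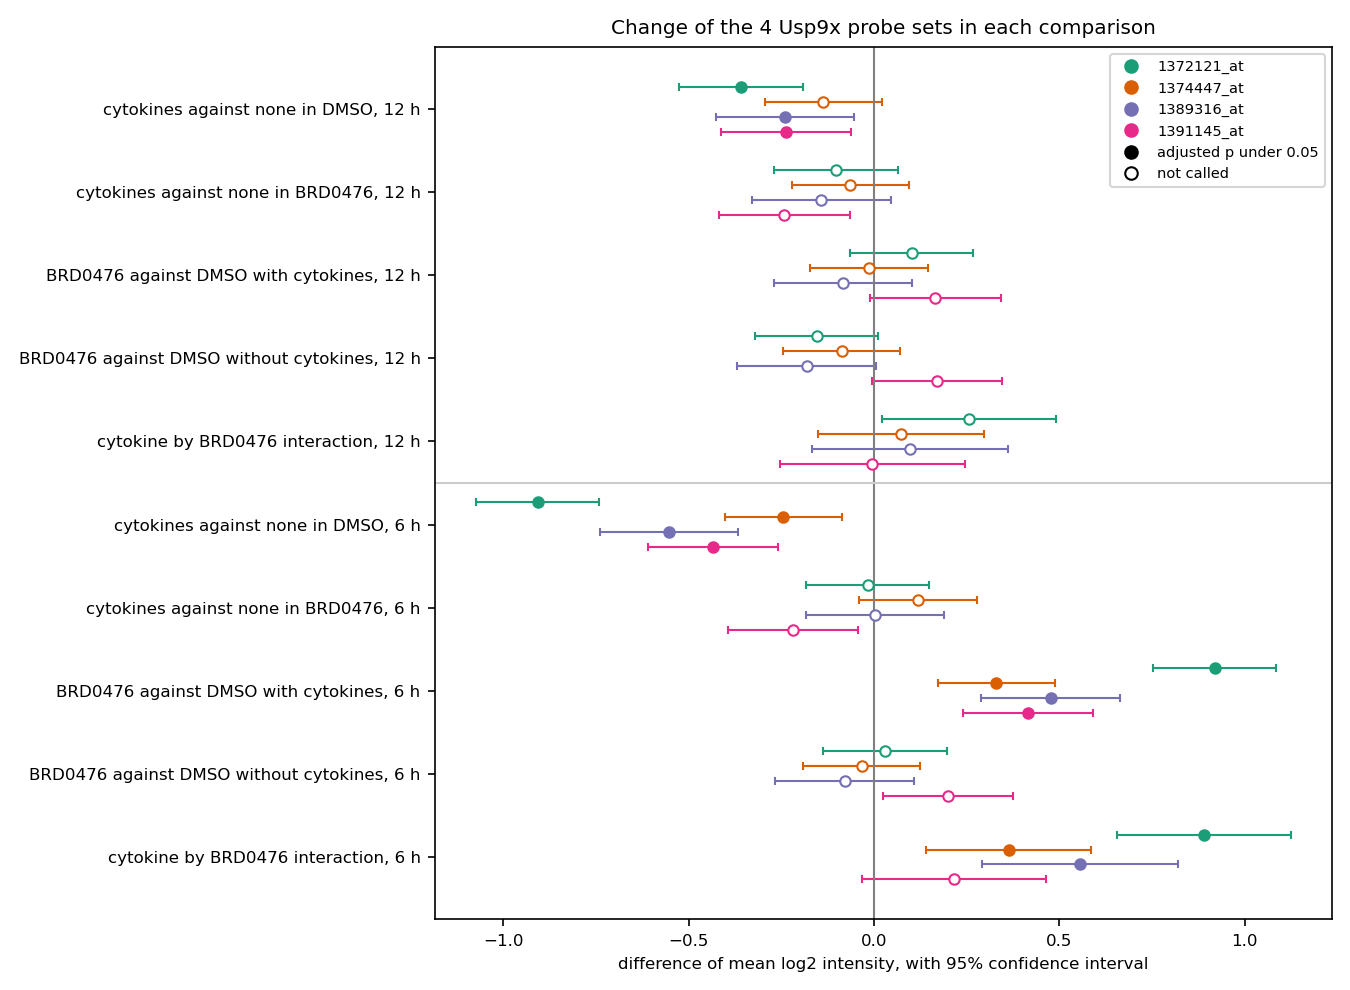
Difference of mean log2 intensity (horizontal axis) with its 95% confidence interval for the 4 Usp9x probe sets in 10 comparisons, 12 h above and 6 h below. Filled points have an adjusted p under 0.05. All 4 are filled and left of 0 for cytokines against none in DMSO at 6 h, and all 4 are filled and right of 0 for BRD0476 against DMSO with cytokines at 6 h.

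At 12 h of cytokines in DMSO, Usp9x was again lower on most probe sets. Of the 4 probe sets 3 were called down and 0 up, where 22.8% of all probe sets were called down. Probe set 1372121_at read 9.62, 9.51 and 9.78 with cytokines, against 9.97, 9.98 and 10.02 without. The groups were apart, but the cytokine arrays spread more widely than at 6 h. It fell by 0.36 ± 0.08 (adjusted p = 0.0011), to 78.0% in linear intensity. Changes of −0.24 ± 0.08 on 1391145_at (adjusted p = 0.0325) and −0.24 ± 0.09 on 1389316_at (adjusted p = 0.0423) were called narrowly. Both calls were lost when arrays were centred on their medians (adjusted p = 0.0531 for 1391145_at and 0.0705 for 1389316_at). On 1389316_at the groups overlapped, with 9.21, 9.05 and 9.40 with cytokines against 9.36, 9.55 and 9.47 without. Replicate 2 of the group with cytokines and DMSO was the lowest of its group on all 4 probe sets. Without it the change was −0.16 on 1389316_at (adjusted p = 0.242) and −0.175 on 1391145_at (adjusted p = 0.17). The call of 1389316_at was also lost without cytokine replicate 1 (−0.23, adjusted p = 0.0924) and without replicate 2 (−0.20, adjusted p = 0.161) or 3 (−0.23, adjusted p = 0.0976) of the group without cytokines. That of 1391145_at was also lost without replicate 1 (−0.23, adjusted p = 0.0833) or 3 (−0.22, adjusted p = 0.0906) of the group without cytokines. Probe set 1374447_at was not called (−0.14, 95% interval −0.30 to 0.02, adjusted p = 0.181).

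With BRD0476 the cytokine change at 12 h was not called by limma on any of the 4 probe sets, where 18.4% of all probe sets were called. On 1391145_at alone the unadjusted p was under 0.05, and 4 alternatives called it. The values were −0.10, −0.06 and −0.14 on 1372121_at, 1374447_at and 1389316_at. On 1391145_at the change was −0.24 ± 0.08 with an adjusted p of 0.0511, and the arrays did not overlap (7.41, 7.54 and 7.45 with cytokines, against 7.74, 7.74 and 7.64 with BRD0476 alone). As many as 21.5% of all probe sets had cytokine arrays that lay wholly below in this comparison.

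BRD0476 against DMSO with cytokines gave no limma call for Usp9x at 12 h, and 0 of 4 had an unadjusted p under 0.05, where 18.2% of all probe sets were called. On 1372121_at the arrays read 9.74, 9.80 and 9.67 with BRD0476, against 9.62, 9.51 and 9.78 with DMSO. They overlapped, and the change was 0.10 (95% interval −0.06 to 0.27, adjusted p = 0.472). The intervals were −0.17 to 0.14 for 1374447_at, −0.27 to 0.10 for 1389316_at and −0.01 to 0.34 for 1391145_at, where the BRD0476 arrays lay above the DMSO arrays (7.41, 7.54 and 7.45 against 7.34, 7.17 and 7.38), as on 16.5% of all probe sets. No interaction was called at 12 h, where 10.1% of all probe sets were. That of 1372121_at was 0.26 ± 0.11 (adjusted p = 0.196), the one with an unadjusted p under 0.05, and was called with array weights (0.31, adjusted p = 0.0319). Cells with both agents were below cells with neither on 1372121_at (−0.26 ± 0.08, adjusted p = 0.0222) and 1389316_at (−0.32 ± 0.09, adjusted p = 0.0106), so 2 of 4 were called down, against 15.3% of all probe sets. On 1372121_at this call was lost without replicate 2 (−0.26, adjusted p = 0.055) or 3 (−0.24, adjusted p = 0.0743) of the group with neither, or replicate 3 of the group with both (−0.22, adjusted p = 0.1). On 1389316_at it was lost without replicate 2 of the group with neither (−0.28, adjusted p = 0.0601) or replicate 3 of the group with both (−0.28, adjusted p = 0.0642).

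With cytokines and DMSO, Usp9x RNA was higher at 12 h than at 6 h. There 3 of 4 probe sets were called up, against 16.0% of all probe sets. The differences were 0.64 ± 0.08 on 1372121_at (adjusted p = 1.69e-06), 0.41 ± 0.09 on 1389316_at (adjusted p = 0.000971) and 0.26 ± 0.08 on 1391145_at (adjusted p = 0.0203). The call of 1391145_at was lost without 12 h replicate 1 (0.24, adjusted p = 0.0668) or 3 (0.22, adjusted p = 0.0842) and without 6 h replicate 3 (0.25, adjusted p = 0.0549). With cytokines and BRD0476 the direction was downward on 1374447_at, the one probe set called (−0.26 ± 0.08, adjusted p = 0.028), where 8.43% of all probe sets were called down. That call was lost without 6 h replicate 2 (−0.20, adjusted p = 0.148) or 3 (−0.24, adjusted p = 0.0883) and without 12 h replicate 2 (−0.24, adjusted p = 0.0994) or 3 (−0.25, adjusted p = 0.0822). Without cytokines none of the 4 was called or had an unadjusted p under 0.05 in BRD0476 or in DMSO, where 1.50% and 0.818% of all probe sets were.

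The change of each effect with time was tested directly. The cytokine change in DMSO was less negative at 12 h than at 6 h by 0.55 ± 0.11 on 1372121_at (adjusted p = 0.00107), the one probe set called, where 9.65% of all were called up. The others gave 0.31, 0.20 and 0.11 on 1389316_at, 1391145_at and 1374447_at, with adjusted p of 0.091, 0.297 and 0.58. Without 12 h cytokine replicate 2, 1389316_at was called too (0.40, adjusted p = 0.0298). The BRD0476 change with cytokines, taken at 12 h minus 6 h, was −0.82 ± 0.11 on 1372121_at (adjusted p = 2.26e-05), −0.56 ± 0.13 on 1389316_at (adjusted p = 0.00321) and −0.34 ± 0.11 on 1374447_at (adjusted p = 0.0292). These 3 of 4 were called down, against 9.97% of all probe sets. On 1374447_at the call was lost in 8 of 12 fits that each left out an array, namely without 6 h DMSO replicate 1 or 2, 6 h BRD0476 replicate 2 or 3, 12 h DMSO replicate 1 or 3, or 12 h BRD0476 replicate 2 or 3. The adjusted p over all 12 ran from 0.00719 to 0.0903, and the change from −0.42 to −0.29. Both tests use the same 6 arrays with cytokines and DMSO.

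The 8 groups were ordered by their means, and each was compared with its neighbour in that order. Cytokines with DMSO at 6 h was the lowest group on all 4 probe sets. On 1372121_at it stood 0.64 below the next group, cytokines with DMSO at 12 h, on 1389316_at 0.33 below cytokines with BRD0476 at 12 h, and on 1391145_at 0.26 below cytokines with DMSO at 12 h, with no overlap of arrays. On 1374447_at it stood 0.07 below cytokines with BRD0476 at 12 h, and there the arrays were only just apart, at most 422.2 against at least 422.3 in linear intensity. All other neighbours in the order overlapped on every probe set, although groups further apart in the order differed, as the calls at 12 h show. The highest mean belonged to DMSO without cytokines at 12 h on 1372121_at and 1389316_at, to cytokines with BRD0476 at 6 h on 1374447_at and to BRD0476 without cytokines at 12 h on 1391145_at.

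The 4 probe sets did not report the cytokine change equally. Averaged over vehicles and times, it was −0.35 on 1372121_at, −0.28 on 1391145_at, −0.23 on 1389316_at and −0.08 on 1374447_at. The size of the change on 1374447_at differed from that on 1372121_at by 0.265 (adjusted p = 0.000938 over 6 pairs), from that on 1391145_at by 0.201 (adjusted p = 0.000938) and from that on 1389316_at by 0.151 (adjusted p = 0.00312). These are exact two-sided permutation tests with 160000 arrangements, swapping arrays within each vehicle and time. Probe sets 1372121_at and 1389316_at differed by −0.113 (adjusted p = 0.0311), but not once any one replicate number was left out (adjusted p between 0.0741 and 0.176). The remaining pairs, 1372121_at with 1391145_at and 1389316_at with 1391145_at, gave −0.06 and 0.05, both with an adjusted p of 0.368. The average over vehicles hides larger gaps of opposite sign: at 6 h, 1372121_at had −0.91 and 1391145_at −0.43 in DMSO, but −0.02 and −0.22 in BRD0476. The gaps within a vehicle and time were not tested. Which transcript forms each probe set reads was not examined.

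Usp9x is one of a large family of ubiquitin-specific proteases, and the others moved in both directions. The lists of genes set beside it were compiled with earlier results of these data known, and their counts are descriptions. Each listed gene was read on its brightest probe set. The shares of all probe sets also count dim ones and those without a gene, so the percentages are not like for like. Of 43 other measured members, 12 (27.9%) were called up and 13 (30.2%) down with cytokines in DMSO at 6 h, where 18.2% of all probe sets were called up and 23.4% down. Their median was −0.02, and that of all probe sets −0.0064. The largest rise was that of Usp18, an interferon-induced enzyme that removes the ubiquitin-like protein ISG15, at 7.21 ± 0.16 (means 12.18 with cytokines and 4.96 without, adjusted p = 5.18e-19). Usp25 rose by 2.34 ± 0.11, Usp43 by 1.45 ± 0.12 and Cyld, which trims chains in NF-κB signalling, by 1.20 ± 0.10. Of these 43, only Usp13 had a lower value than Usp9x 1372121_at (−1.16 ± 0.09, adjusted p = 7.35e-10). Usp24 fell by 0.52 ± 0.12 on its brighter probe set (adjusted p = 0.000905) and had −0.24 ± 0.15 on the other (adjusted p = 0.226).

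With BRD0476 added to cytokines at 6 h, 11 of these proteases (25.6%) were called up and 8 (18.6%) down, where 19.2% of all probe sets were called up and 14.6% down (median 0.02, all probe sets 0.0023). Usp18 fell by 2.90 ± 0.16 and Usp25 by 2.12 ± 0.11. Usp13 had 1.35 ± 0.09, the one value above that of Usp9x 1372121_at. Of 27 deubiquitinases of other families, 11 (40.7%) were called up and 10 (37.0%) down with cytokines in DMSO at 6 h, against 18.2% and 23.4% of all probe sets. Tnfaip3, the NF-κB inhibitor A20, rose by 2.99 ± 0.12 and Otud1 by 2.14 ± 0.08, and Zup1 by 1.0 ± 0.07. Atxn3, which is expanded in Machado-Joseph disease, fell by 1.36 ± 0.08. With BRD0476 and cytokines 11 (40.7%) were called up and 6 (22.2%) down, against 19.2% and 14.6% of all. Otud1 fell by 2.77 ± 0.08, Atxn3 rose by 0.97 ± 0.08 and Tnfaip3 was at −0.09 ± 0.12 (adjusted p = 0.653).

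Ubiquitin genes and the enzymes that load ubiquitin, the E1 and E2 classes, gave 9 called up (33.3%) and 10 down (37.0%) of 27 with cytokines in DMSO at 6 h, against 18.2% and 23.4% of all probe sets. Ube2l6 and Uba7, which load ISG15, rose by 2.55 ± 0.06 and 2.37 ± 0.15. Ube2e2 rose by 1.27 ± 0.07. Ube2t, an E2 of the Fanconi anaemia DNA repair pathway, fell by 2.08 ± 0.09. With BRD0476 and cytokines 10 of the 27 (37.0%) were called up and 9 (33.3%) down, against 19.2% and 14.6% of all. Uba7 fell by 1.46 ± 0.15 and Ube2t rose by 1.45 ± 0.09.

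**Figure D3:**
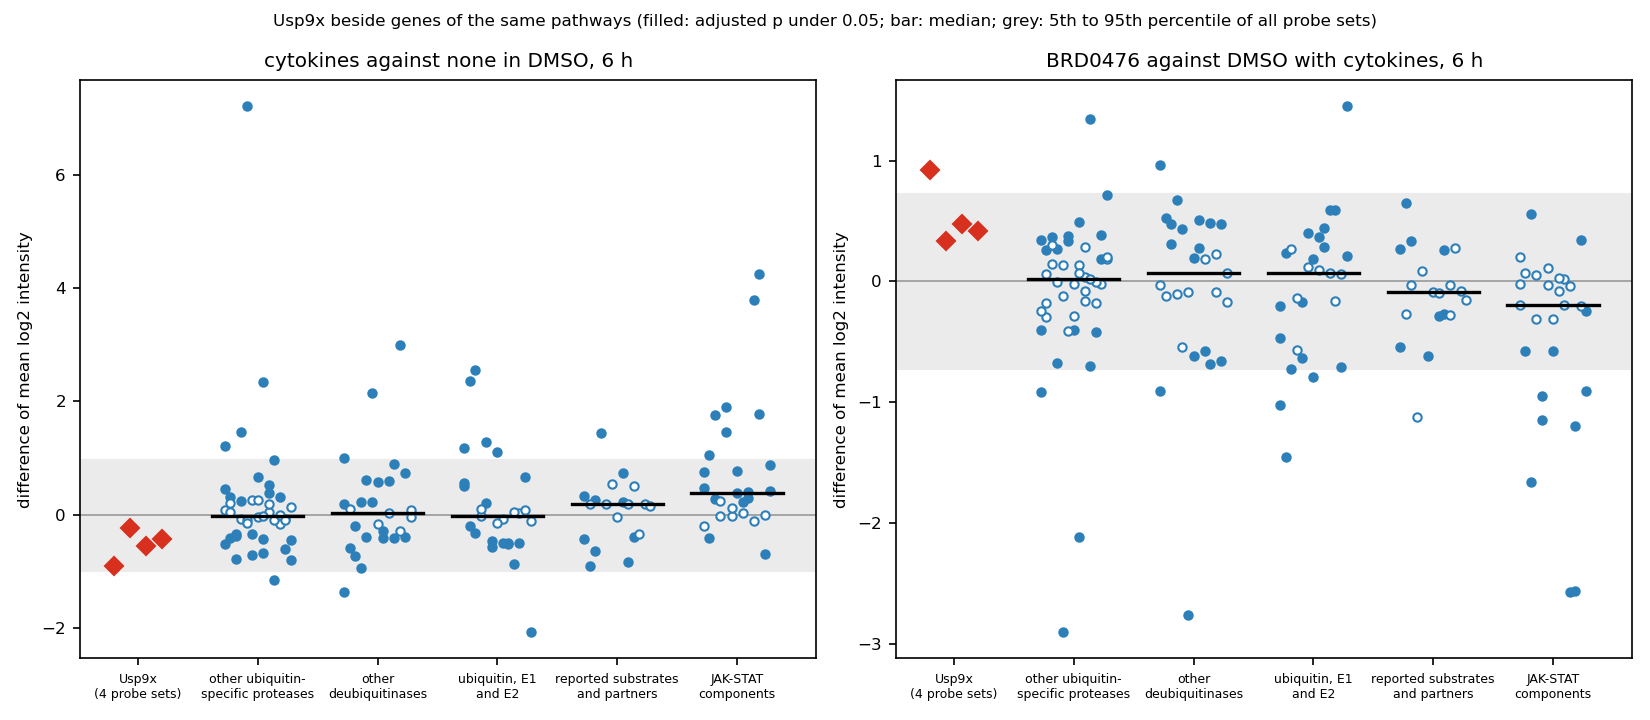
Difference of mean log2 intensity at 6 h for Usp9x (diamonds, 4 probe sets) and for 5 lists of related genes (circles, 1 probe set a gene, filled where the adjusted p is under 0.05), for cytokines against none in DMSO (left) and BRD0476 against DMSO with cytokines (right). Bars are medians and the grey band spans the 5th to the 95th percentile of all probe sets. The 4 diamonds lie between −0.91 and −0.24 on the left and between 0.33 and 0.92 on the right.

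Reported substrates and partners of USP9X, known mostly from human cells, were called in both directions. Of 19 measured, 5 were called up and 5 down with cytokines in DMSO at 6 h (26.3% each, against 18.2% and 23.4% of all probe sets). With BRD0476 and cytokines 4 were called up and 4 down (21.1% each, against 19.2% and 14.6% of all). Birc5, the inhibitor of apoptosis survivin, fell by 0.91 ± 0.08 with cytokines and rose by 0.65 ± 0.08 with BRD0476 added. Clspn, a checkpoint adaptor of replication, fell by 0.84 ± 0.09, and Bcl10, an NF-κB adaptor, rose by 0.73 ± 0.08. Epn1, an endocytic adaptor, rose by 1.44 ± 0.48 (adjusted p = 0.0187), a call lost without replicate 1 (1.35, adjusted p = 0.0588) or 2 (0.92, adjusted p = 0.151) of the cytokine group or replicate 3 of the group without cytokines (1.32, adjusted p = 0.0632). Mark4, a microtubule-associated kinase, fell by 0.62 ± 0.23 with BRD0476 added (adjusted p = 0.0422), with overlapping arrays, a call lost with the replicate block (adjusted p = 0.0525) and with only the arrays compared (adjusted p = 0.075).

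Mcl1, the survival protein named above, had 0.15 ± 0.10 on its brighter probe set with cytokines at 6 h (adjusted p = 0.254) and rose by 0.27 ± 0.09 on the other (adjusted p = 0.0224). At 12 h it rose by 0.69 ± 0.10 and 0.69 ± 0.09 on them, and with BRD0476 added it fell by 0.63 ± 0.10 and 0.88 ± 0.09. Smad4 rose by 0.34 ± 0.06 with cytokines at 6 h and fell by 0.54 ± 0.06 with BRD0476 added, on its brighter probe set. At 12 h that probe set fell by 0.21 ± 0.06 with cytokines (adjusted p = 0.0151) and by 0.21 ± 0.06 with BRD0476 added (adjusted p = 0.0243). The other Smad4 probe set had 0.23 ± 0.09 with cytokines (adjusted p = 0.045) and −0.58 ± 0.09 with BRD0476 added at 6 h (adjusted p = 2.16e-05). At 12 h it was not called with cytokines (−0.04 ± 0.09, adjusted p = 0.767) and fell by 0.37 ± 0.09 with BRD0476 added (adjusted p = 0.00508). Itch has no named probe set.

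Genes of the JAK-STAT pathway, through which interferon-gamma acts, were mostly higher with cytokines at 6 h, the reverse of Usp9x. Of 27 measured, 17 (63.0%) were called up and 2 (7.41%) down with cytokines in DMSO (median 0.39), against 18.2% and 23.4% of all probe sets. With BRD0476 and cytokines 2 (7.41%) were called up and 10 (37.0%) down (median −0.20), against 19.2% and 14.6% of all. Stat2 rose by 4.24 ± 0.13, Irf9 by 3.79 ± 0.12, Stat3 by 1.89 ± 0.13 and Jak2 by 1.78 ± 0.14 with cytokines. With BRD0476 added they fell by 2.56 ± 0.13, 2.57 ± 0.12, 1.14 ± 0.13 and 1.20 ± 0.14. For Jak2, the kinase below the interferon-gamma receptor, the cytokine change in DMSO was 2.23 ± 0.14 at 12 h (adjusted p = 1.52e-11). Its BRD0476 change with cytokines was −1.60 ± 0.14 at 12 h (adjusted p = 1.15e-08). Usp9x had no call for BRD0476 at that time, which does not show that it was unchanged. Jak2 and Usp9x were not tested against each other.

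Usp9x lies on the X chromosome, and its named, measured neighbours in the gene order of the GRCr8 annotation are Ddx3x, Cask, Gpr34, Maoa and Maob on one side and Med14, Cxhxorf38, Atp6ap2, Bcor and Mid1ip1 on the other. With cytokines in DMSO at 6 h, 5 of the 10 were called down and 1 up (median −0.14), against 23.4% of all probe sets down and 18.2% up. The monoamine oxidases Maob and Maoa fell by 2.37 ± 0.06 and 0.96 ± 0.11. Med14, a Mediator subunit, fell by 0.94 ± 0.10, Mid1ip1 by 0.77 ± 0.19 and Cask by 0.15 ± 0.06, and Cxhxorf38 rose by 0.53 ± 0.11. Ddx3x, an RNA helicase and the nearest neighbour, had −0.13 ± 0.06 (adjusted p = 0.117). On its dimmer probe set it had −0.35 ± 0.15 (adjusted p = 0.0651), not called, with the cytokine arrays all below the others. With BRD0476 and cytokines 3 were called up, Maob (1.37), Maoa (0.82) and Med14 (0.60), where 19.2% of all probe sets were, and 2 down, Cxhxorf38 (−0.77) and Atp6ap2 (−0.21), where 14.6% were.

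Many transcripts had a profile like that of the brightest Usp9x probe set, 1372121_at. Across the 24 arrays 206 of 14216 other genes (1.45%) correlated with 1372121_at at r above 0.9, where the median was −0.002. The 10 most alike were Trappc1 (r = 0.959), Sec63 (0.958), Acyp1 (0.957), Ccnyl1 (0.955), mrpl11 (0.951), Sfpq (0.948), Ppp2r5c (0.944), Pop4 (0.942), Brms1l (0.942) and Rpa3 (0.94). All were lower with cytokines in DMSO at 6 h, from −0.68 for Sec63 to −2.42 for Ccnyl1. With BRD0476 added they were higher, from 0.68 for Sec63 to 2.16 for Ccnyl1. Genes chosen for likeness over these same arrays share the directions of 1372121_at by that choice, so these directions are no separate result. The 5 most opposite were Ccl19, a chemokine (r = −0.949), Srsf4 (−0.944), Fbxo46 (−0.938), Mxd1 (−0.928) and Banp (−0.927). Over the 8 group means r was 0.978 for Trappc1 and 0.980 for Sec63, and 3 of the 10 were again among the 10 most alike. With the other Usp9x probe sets the likeness of these 10 was lower, with r from 0.824 to 0.92 for 1389316_at, 0.798 to 0.888 for 1391145_at and 0.555 to 0.643 for 1374447_at. Ranked among the other genes by likeness to 1372121_at, the Usp9x probe set 1389316_at took place 156, 1391145_at place 797 and 1374447_at place 1670. These correlations describe 24 arrays in which 1 group stands far from the rest.

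**Figure D4:**
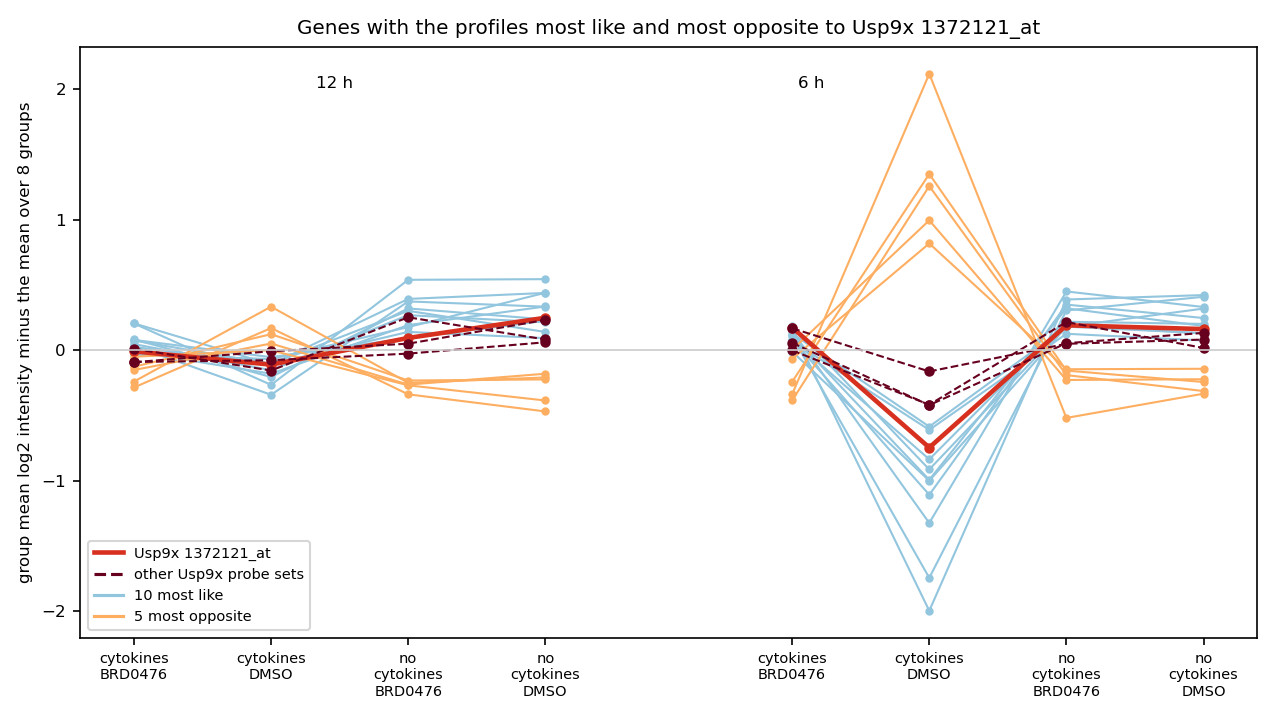
Group mean log2 intensity minus the mean over the 8 groups, for Usp9x 1372121_at (thick line), the other 3 Usp9x probe sets (dashed), the 10 genes most like it and the 5 most opposite, at 12 h (left) and 6 h (right). The lines separate most at cytokines with DMSO at 6 h, where the genes most alike were below 0 and the most opposite above. Both sets were chosen by likeness over these same arrays, so this separation follows from the choice.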

How the data were processed

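Total RNA of 24 INS-1E samples was hybridised to single-colour Affymetrix arrays. The deposited values are probe set intensities that the authors made with RMA, per the submitters' processing notes; the step to linear values and the RMA version are not given in the sources used here. Of 31099 probe sets deposited, 57 were controls and were set aside. Intensities were taken to log2 without further normalization (array medians 5.49 to 5.57). The number of arrays limits the precision.

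Genes were named from the platform annotation: 20826 probe sets had 1 gene, 436 several and 9780 none. Apart from Usp9x, a gene's brightest probe set stood for it. The shares of all probe sets set beside lists, markers and neighbours also count dim probe sets and those without a gene. A mean per group was estimated by limma 3.58.1 (R 4.3.3; lmFit and eBayes), leaving 16 residual degrees of freedom. P-values were adjusted with Benjamini-Hochberg over all 31042 probe sets in each of 18 comparisons. With 3 arrays against 3 an exact two-sided test cannot go below 0.1, so calls rest on the model. The fit was tested on simulated data.

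Named genes were up to 4 called members a list with the largest change for cytokines at 6 h, up to 2 for BRD0476 with cytokines, a short panel, and the 10 most and 5 least like Usp9x. Usp13, the second probe sets of Usp24, Smad4 and Ddx3x, and further changes of markers and of genes named by the rule were given after their values were seen. Members and lists were chosen with earlier results of these data known. Samples with the same replicate number deviated together no more than others on average, and the main fit did not pair them. Alternatives were centring, quantile normalization, array weights, a trended robust prior, a replicate block, only the arrays compared, 1 probe set a gene, dim probe sets left out and each array left out.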

Additional observations from a re-analysis of the deposited data

Results flagged for a closer look

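For 7 results the same contrast differed between conditions or times by a test of the difference itself. The cytokine change at 6 h differed between BRD0476 and DMSO by 0.89 ± 0.11 on probe set 1372121_at (adjusted p = 3.71e-06), 0.56 ± 0.13 on 1389316_at (adjusted p = 0.00219) and 0.36 ± 0.11 on 1374447_at (adjusted p = 0.0154), all from limma. The cytokine change in DMSO differed between 12 h and 6 h by 0.55 ± 0.11 on 1372121_at (adjusted p = 0.00107). The BRD0476 change with cytokines differed between 12 h and 6 h by −0.82 ± 0.11 on 1372121_at (adjusted p = 2.26e-05), −0.56 ± 0.13 on 1389316_at (adjusted p = 0.00321) and −0.34 ± 0.11 on 1374447_at (adjusted p = 0.0292). All 7 rest in part on the same 3 arrays with cytokines and DMSO at 6 h. Groups of 3 were not tested for single outlying arrays.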

How the results depend on the processing

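With cytokines in DMSO at 6 h, the calls of 1372121_at, 1389316_at and 1391145_at kept direction and call in every alternative run, as did all 4 calls for BRD0476 with cytokines at 6 h and the interactions of 1372121_at and 1389316_at at 6 h. For cytokines in DMSO at 12 h, 1389316_at had −0.209 with centred arrays (adjusted p = 0.0705), −0.223 after quantile normalization (adjusted p = 0.06), −0.24 with only the arrays compared (adjusted p = 0.132) and −0.24 with the replicate block (adjusted p = 0.0564). There 1391145_at had −0.206 (centred), −0.169 (quantile) and −0.237 (only the arrays compared), no longer called. With only the arrays compared, 1374447_at had −0.244 for cytokines in DMSO at 6 h, −0.258 for 12 h against 6 h with cytokines and BRD0476 and −0.344 for the change of the BRD0476 effect with time, and 1391145_at 0.262 for 12 h against 6 h with cytokines and DMSO (0.247 with array weights), all not called. Calls appeared for 1391145_at with cytokines in BRD0476 at 6 h (−0.246 centred, −0.229 with array weights) and at 12 h (−0.252 centred, −0.212 with array weights, −0.241 with 1 probe set a gene and with dim probe sets left out). Array weights also gave calls for the interaction of 1372121_at at 12 h (0.309) and for both agents against neither at 12 h on 1374447_at (−0.162). Directions turned on values near 0 that were never called: 1389316_at with cytokines in BRD0476 at 6 h (−0.0256 centred, −0.000134 quantile), 1372121_at for both agents against neither at 6 h (−0.00274 centred), 1391145_at for the interaction at 12 h (0.0277 with array weights), and 1389316_at for 12 h against 6 h in BRD0476 alone (0.00186 quantile, 0.000448 with array weights). The cause of these changes was not tested.

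Leaving out each array, 1372121_at ran from −0.0215 to 0.112 for BRD0476 alone at 6 h, −0.0708 to 0.0292 for cytokines in BRD0476 at 6 h, and, for both agents against neither, −0.288 to −0.224 at 12 h and −0.0386 to 0.0953 at 6 h. For 1374447_at the ranges were −0.328 to −0.205 for 12 h against 6 h with cytokines and BRD0476, −0.0509 to 0.0102 for the same in DMSO alone, −0.0898 to 0.044 for BRD0476 with cytokines at 12 h, −0.42 to −0.287 for its change with time, −0.0032 to 0.131 for the interaction at 12 h, 0.31 to 0.433 for that at 6 h and −0.274 to −0.213 for cytokines in DMSO at 6 h. For 1389316_at they were −0.0638 to 0.0439 for 12 h against 6 h in BRD0476 alone, −0.167 to 0.00721 for BRD0476 with cytokines at 12 h, 0.222 to 0.396 for the cytokine effect's change with time, −0.0577 to 0.05 for cytokines in BRD0476 at 6 h, −0.331 to −0.156 for cytokines in DMSO at 12 h and −0.374 to −0.276 for both agents against neither at 12 h. For 1391145_at they were, for 12 h against 6 h, −0.0562 to 0.108 with cytokines and BRD0476, 0.221 to 0.324 with cytokines and DMSO and −0.0195 to 0.0691 in BRD0476 alone, then −0.0663 to 0.0363 for the interaction at 12 h, −0.314 to −0.149 for cytokines in BRD0476 at 6 h, −0.278 to −0.175 for cytokines in DMSO at 12 h and −0.115 to 0.0498 for both agents against neither at 6 h. The mean cytokine change of 1372121_at minus that of 1389316_at ran from −0.13 to −0.0898. Same-numbered samples deviated together no more than others on average (mean r −0.00996 over 84 pairs, against 0.00551 over 168 pairs). The ranges were −0.404 to 0.641 and −0.463 to 0.417. Such an average cannot exclude pairing between some of the groups. The replicate block ended no other Usp9x call. BRD0476 alone called 535 probe sets at 6 h, against 901 with array weights, 65 with only the arrays compared and 266 to 291 without replicates 1 or 2 of its group. At 12 h it called 797, against 2573 with array weights and 430 to 504 without each array. Over all comparisons, 38 of 276 alternative counts of called probe sets moved beyond the ratio set for sameness, and 238 did not. Of 280 alternative list counts 6 moved. Of 420 alternative results for named genes 10 lost their call and 0 reversed. The shares and list counts given above are those of the main fit.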
